A study of Mus musculus with 6 samples.

Results

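The 39 genes described here code for enzymes that break down amino acids. They were taken from a named list by matching symbols, and all 39 were found among the 16638 genes of the deposited liver table. By amino acid they fall into 6 genes of phenylalanine and tyrosine breakdown (aromatic), 6 of tryptophan, 4 of histidine, 14 of the branched-chain amino acids leucine, isoleucine and valine, 2 of lysine, 3 of proline, and 4 general transaminases. By where the enzyme works, as textbooks give it, 22 are mitochondrial and 17 cytosolic. Expression is in FPKM (the number of sequenced fragments per gene, corrected for gene length and library depth).

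Liver RNA was sequenced from 3 samples labelled HA and 3 labelled PBS. HA is hippuric acid, made in the liver by joining benzoate to glycine, and was injected into the abdominal cavity of obese model mice at 60 mg/kg, 2 times a week over 5 weeks. PBS is phosphate-buffered saline; its schedule is not stated, nor, in the sources used here, are the way obesity was produced, the strain, the sex and the age. The study's title names metabolic dysfunction-associated steatotic liver disease as its subject. Nothing in the labels says that the samples of a group came from separate animals, so p-values here cover only the spread from sample to sample, part of which may be technical.

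Library depth, recovered from the table itself, was 37921444 to 39349601 fragments in HA libraries and 38209590 to 39908844 in PBS libraries. A member had between 310 and 128201 fragments in a library. Counting error thus differed between members, and it was not set against the spread between samples of each. Markers of hepatocytes were abundant in all 6 libraries. Of the 7 listed, 4 had positive and 3 negative log2 fold changes, HA over PBS. Cyp2e1 lay wholly lower in HA livers (-0.94), and Ttr (-0.22) and Hnf4a (-0.21) overlapped. Albumin (Alb) stood at 60866 to 71082 FPKM in HA livers and at 36519 to 47670 FPKM in PBS livers. It took 12.5 to 14.7% of fragments in HA libraries and 7.53 to 9.82% in PBS libraries. A larger share for Alb leaves a smaller one for every other gene, so counts below are also given on scales that leave Alb out. PBS replicate 1 stood apart in holding transcripts of adrenal gland and skeletal muscle. The summed level of 5 adrenal markers was 0.197 to 0.351 FPKM in HA livers, against 61.2, 0.391 and 0.150 FPKM in PBS livers 1 to 3, and Cyp11a1, Cyp11b1 and Hsd3b1 were listed at 0 in the other 5 libraries. The summed level of 6 muscle markers was 0.431 to 0.680 FPKM in HA livers, against 51.8, 0.402 and 0.971 FPKM in PBS livers 1 to 3.

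The liver is the main site where most amino acids are degraded. Their nitrogen is first moved by transaminases or freed by lyases and oxidases, and passes to the urea cycle; the carbon skeletons then enter the citric acid cycle, glucose synthesis or ketone body synthesis. Aromatic, tryptophan and histidine breakdown begin in the cytosol, and their entry enzymes are known for their response to glucocorticoids, glucagon and dietary protein. Branched-chain, lysine and proline breakdown run in the mitochondrial matrix through dehydrogenases that hand electrons to the respiratory chain.

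HA livers were compared with PBS livers by limma, a linear model across genes, on log2(FPKM + 1) for every gene averaging 0.5 FPKM or more over the 6 libraries, 10745 in all. All 39 members passed that filter. Two-sided p-values received Benjamini-Hochberg adjustment over the 10745 genes, and the threshold was 0.05. No member passed it (0 of 39), while 0.800% of all tested genes did in either direction (0.512% lower and 0.289% higher in HA livers). At an unadjusted p under 0.05 the members gave 14 lower and 1 higher, against 17.7% of all tested genes, 13.1% lower and 4.61% higher. A precision-weighted limma fit (voom) on recovered fragments also called 0 members with either of the depth scalings tried, with 14 and 13 members at an unadjusted p under 0.05. The smallest adjusted p of any member was 0.0544, for Hibadh.

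In 16 of 39 members the 3 HA values all lay below the 3 PBS values, and in 0 of 39 all above. Over all tested genes 19.2% lay below and 6.47% above. The log2 fold change was negative in 32 members and positive in 7, with a median of -0.25, against a median of -0.06 and a negative value in 62.8% of all tested genes. The 16 members without overlap were all mitochondrial: 11 enzymes of branched-chain breakdown, together with Kmo, Gcdh, Prodh, Aldh4a1 and Got2. All 22 mitochondrial members had log2 fold changes below 0 (median -0.37), and 16 of the 22 did not overlap. The 17 cytosolic members split into 10 negative and 7 positive, with a median of -0.13, and 0 of the 17 were free of overlap. With libraries rescaled to the FPKM outside Alb, 14 members lay wholly lower against 11.2% of all genes, and with depths from median ratios 14 against 11.6%. All 22 mitochondrial members stayed negative on both of these scales and with median centring. No test was made of the difference between the compartments. These were assigned to the 39 members only, so the split describes this list and was not examined in other amino acid genes. In whole liver, fewer cells of a type and less RNA per cell cannot be told apart.

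**Figure D1:**
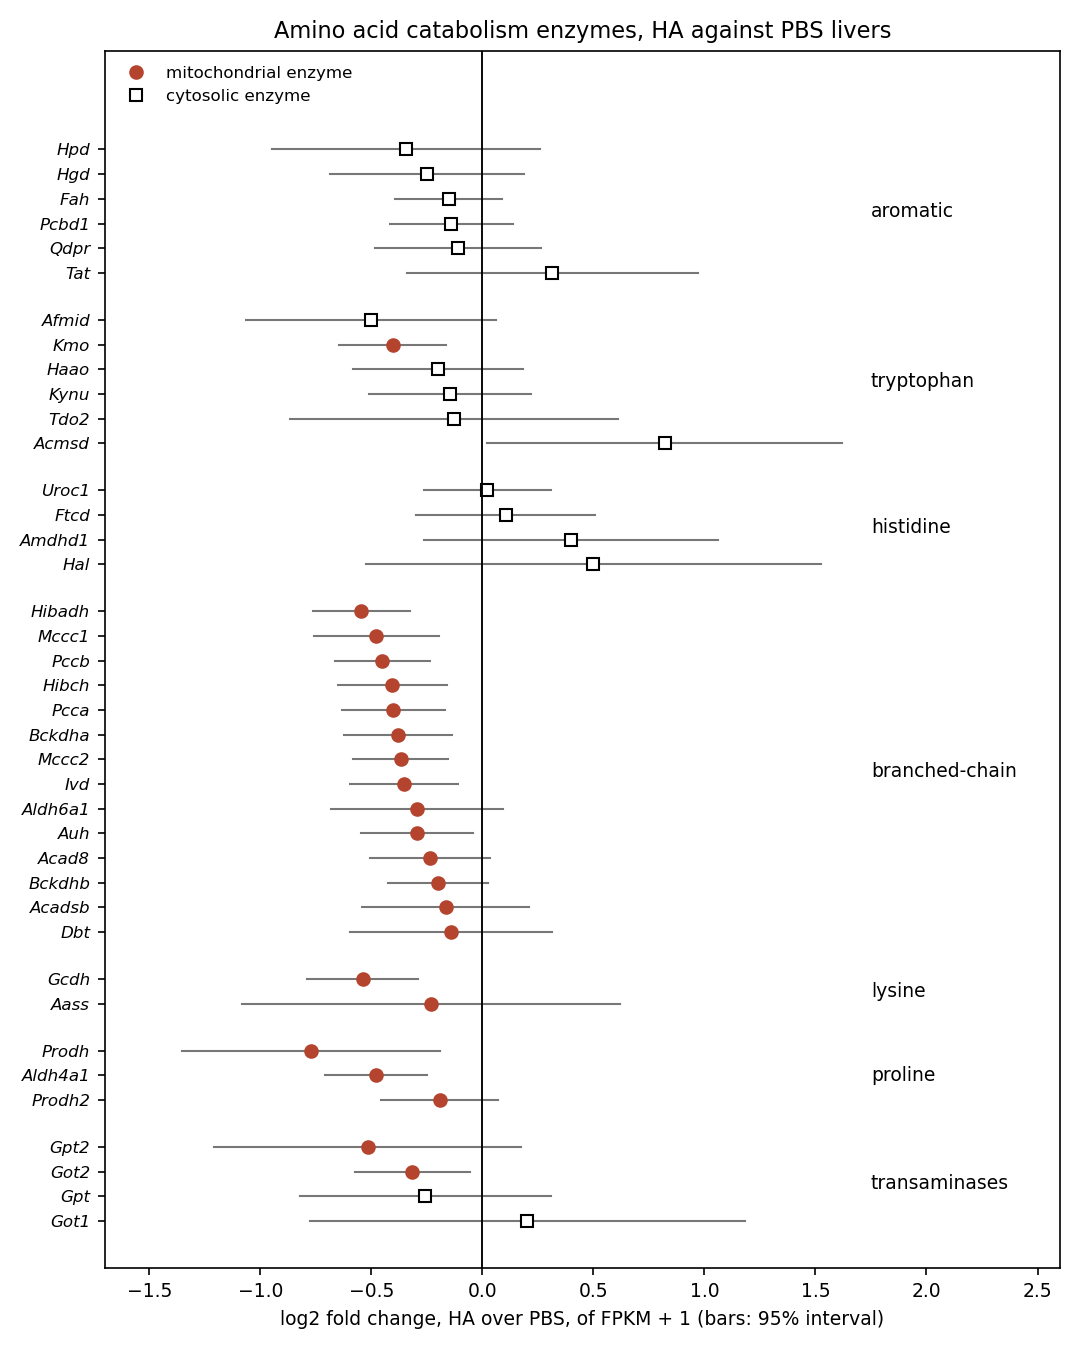
Log2 fold change of each of the 39 members, HA over PBS on the log2(FPKM + 1) scale, with its 95% confidence interval from limma, grouped by amino acid; filled circles are mitochondrial and open squares cytosolic enzymes. The 14 branched-chain enzymes all lie left of 0, with a median of -0.36, and the 4 histidine enzymes lie right of 0, with intervals that all cross it.

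Branched-chain amino acids are first transaminated and then committed to breakdown by the branched-chain ketoacid dehydrogenase complex. Its catalytic E1 part is made of the subunits Bckdha and Bckdhb, and Dbt is the E2 core that carries the acyl group. Bckdha stood at 87.4, 95.3 and 87.3 FPKM in HA livers 1 to 3 and at 117, 127 and 108 FPKM in PBS livers 1 to 3. Bckdhb stood at 35.6, 34.0 and 36.1 FPKM in HA livers and at 38.9, 44.0 and 38.9 FPKM in PBS livers. For both E1 subunits every HA value was below every PBS value, and the log2 fold changes were -0.38 (SE 0.10) for Bckdha and -0.20 (SE 0.10) for Bckdhb, with limma adjusted p of 0.132 and 0.329. Dbt overlapped, at 27.4, 44.9 and 31.2 FPKM in HA livers against 41.5, 31.8 and 39.4 FPKM in PBS livers. HA replicate 2 held the highest Dbt value of all 6 libraries, and the log2 fold change of -0.14 had an interval from -0.59 to 0.31 (limma adjusted p = 0.735).

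The leucine branch continues with isovaleryl-CoA dehydrogenase (Ivd), the biotin enzyme methylcrotonyl-CoA carboxylase (subunits Mccc1 and Mccc2) and the hydratase Auh. Ivd averaged 48.1 ± 4.27 FPKM in HA livers and 61.6 ± 2.77 FPKM in PBS livers (SD, n = 3 each). Mccc1, which carries the biotin, was at 17.0, 13.9 and 12.8 FPKM in HA livers and at 21.4, 20.0 and 20.1 FPKM in PBS livers. Mccc2, the partner subunit, was at 26.1, 26.4 and 24.1 FPKM in HA livers and at 32.4, 34.7 and 32.6 FPKM in PBS livers. The 4 leucine enzymes all lay wholly lower in HA livers, Auh included at 5.50 to 6.78 FPKM against 7.68 to 8.37 FPKM in PBS livers. Their log2 fold changes ran from -0.48 (SE 0.12) for Mccc1 to -0.29 (SE 0.11) for Auh, and their limma adjusted p from 0.112 for Mccc2 to 0.223 for Auh.

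The valine and isoleucine branches hold the acyl-CoA dehydrogenases Acad8 (valine) and Acadsb (isoleucine), the hydrolase Hibch, the dehydrogenase Hibadh and the semialdehyde dehydrogenase Aldh6a1. Hibadh oxidises 3-hydroxyisobutyrate, a valine intermediate that leaves cells freely and has been described in mouse muscle as a signal for fatty acid uptake. Hibadh stood at 146, 141 and 133 FPKM in HA livers 1 to 3 and at 198, 209.7 and 207 FPKM in PBS livers 1 to 3. The HA values lay close together and far below the PBS values, with a mean of 140.2 ± 6.54 FPKM in HA livers and 205 ± 6.24 FPKM in PBS livers (SD, n = 3 each). Its log2 fold change of -0.54 (SE 0.09, interval -0.76 to -0.32) missed the threshold at a limma adjusted p of 0.0544. Without a trend of variance on expression the adjusted p was 0.0483, which would make Hibadh a call in limma.

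Hibch, which makes the substrate of Hibadh, was at 36.4, 42.7 and 37.3 FPKM in HA livers and at 48.6, 51.3 and 55.0 FPKM in PBS livers, without overlap (log2 fold change -0.40, SE 0.11, limma adjusted p = 0.121). Acad8 was at 19.1, 19.7 and 16.3 FPKM in HA livers and at 22.0, 23.6 and 19.7 FPKM in PBS livers. The gap for Acad8 was narrow, since the highest HA value and the lowest PBS value both round to 19.7 FPKM, and its limma adjusted p was 0.335. Acadsb and Aldh6a1 overlapped in the same way as Dbt, with HA replicate 2 above at least 1 PBS value and HA replicates 1 and 3 below all of them. Acadsb was at 35.5, 53.5 and 39.4 FPKM in HA livers and at 47.5, 43.6 and 51.5 FPKM in PBS livers. Aldh6a1, which ends the valine branch at propionyl-CoA, was at 129, 200.1 and 156 FPKM in HA livers and at 198, 182 and 207 FPKM in PBS livers. Their log2 fold changes were -0.17 (interval -0.54 to 0.21) for Acadsb and -0.29 (interval -0.68 to 0.09) for Aldh6a1.

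Propionyl-CoA from valine and isoleucine is carboxylated by propionyl-CoA carboxylase, built from the biotin-carrying alpha subunit Pcca and the beta subunit Pccb. Pcca was at 24.0, 21.3 and 20.8 FPKM in HA livers and at 29.9, 30.4 and 27.8 FPKM in PBS livers. Pccb was at 53.7, 50.5 and 55.1 FPKM in HA livers and at 73.5, 75.3 and 69.9 FPKM in PBS livers. Both subunits lay wholly lower in HA livers, by log2 fold changes of -0.40 (SE 0.10) for Pcca and -0.45 (SE 0.09) for Pccb, with limma adjusted p of 0.109 and 0.0766. The ratio of Pccb to Pcca was 2.42 ± 0.208 in HA livers and 2.48 ± 0.0319 in PBS livers (SD, n = 3 each), and overlapped. Summed over the 14 branched-chain members, expression was 689, 803 and 702 FPKM in HA livers 1 to 3 and 939.6, 944 and 944 FPKM in PBS livers 1 to 3. The 3 PBS sums were almost equal, and the 3 HA sums were all lower and spread more widely. Over all tested genes 62.8% were negative, 19.2% lay wholly lower, 13.1% were lower at an unadjusted p under 0.05 and 0.512% fell past the threshold. In all, 14 of 14 branched-chain members were negative and 11 of 14 lay wholly lower. Of these 14, 9 had an unadjusted p under 0.05 and 0 passed the threshold, with a median log2 fold change of -0.36. Without PBS replicate 1, the library with adrenal and muscle transcripts, that median was -0.35. With libraries scaled outside Alb it was -0.27 and 9 of 14 lay wholly lower, against 11.2% of all tested genes.

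**Figure D2:**
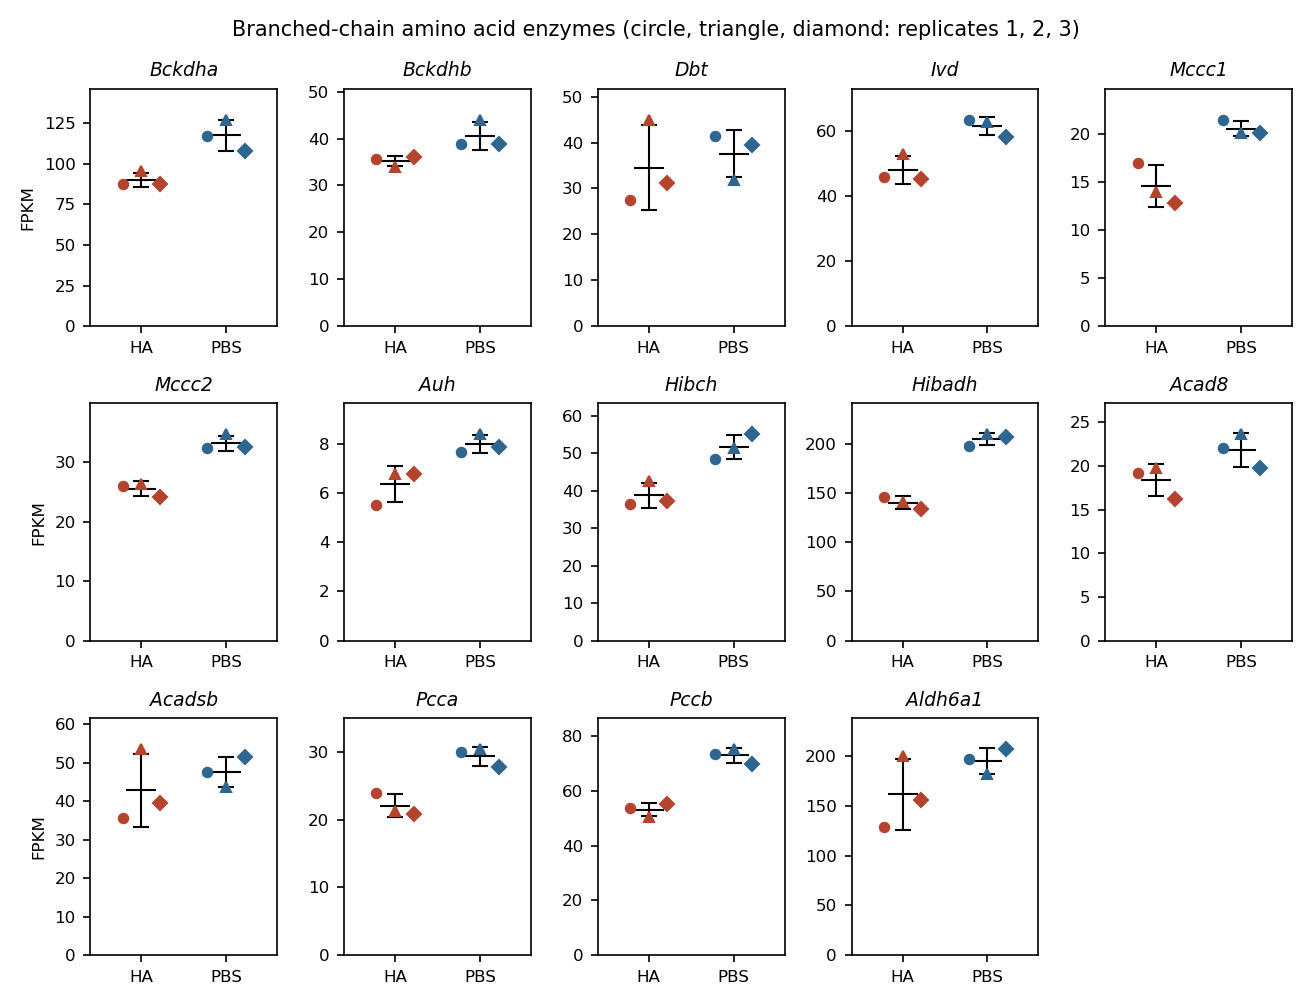
FPKM of the 14 branched-chain members, 1 panel per gene on an axis from 0, with HA left of PBS; circles, triangles and diamonds are replicates 1, 2 and 3, and bars are the mean ± SD. HA replicates 1 and 3 lie below the lowest PBS value in 14 of 14 genes and HA replicate 2 in 11 of 14; the exceptions are Dbt, Acadsb and Aldh6a1.

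Lysine is degraded in mitochondria from Aass, the bifunctional enzyme of the first steps, to Gcdh, the glutaryl-CoA dehydrogenase that also serves tryptophan breakdown. Gcdh stood at 94.1, 110.2 and 111 FPKM in HA livers and at 146, 156 and 156 FPKM in PBS livers. All HA values were lower by a wide gap, with means of 105 ± 9.59 FPKM in HA livers and 153 ± 6.08 FPKM in PBS livers (SD, n = 3 each), a log2 fold change of -0.54 (SE 0.11, interval -0.79 to -0.29) and a limma adjusted p of 0.0719. Aass stood at 66.3, 198 and 83.0 FPKM in HA livers and at 128, 123 and 113 FPKM in PBS livers. HA replicate 2 was above and HA replicates 1 and 3 below every PBS value of Aass, so the log2 fold change of -0.23 (limma adjusted p = 0.769, SE 0.36) averages opposite deviations. Without HA replicate 1 it was 0.08, and without HA replicate 2 it was -0.70.

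Proline is oxidised by proline dehydrogenase (Prodh) and hydroxyproline by Prodh2, and both products pass to Aldh4a1, which forms glutamate or its hydroxylated form. Prodh was at 34.1, 66.1 and 56.8 FPKM in HA livers and at 96.5, 71.1 and 95.4 FPKM in PBS livers. Its groups did not overlap, but the gap between HA replicate 2 and PBS replicate 2 was small, and the log2 fold change of -0.77 had a wide interval of -1.35 to -0.19 (limma adjusted p = 0.176). Aldh4a1 was at 66.3, 64.2 and 61.8 FPKM in HA livers and at 90.0, 96.3 and 83.3 FPKM in PBS livers. The HA values of Aldh4a1 were nearly level and all below the PBS values, with means of 64.1 ± 2.25 FPKM in HA livers and 89.9 ± 6.51 FPKM in PBS livers (SD, n = 3 each), a log2 fold change of -0.48 (SE 0.10) and a limma adjusted p of 0.0779. Prodh2 overlapped, at 72.1, 80.9 and 67.3 FPKM in HA livers against 77.8, 90.8 and 83.1 FPKM in PBS livers (log2 fold change -0.19, limma adjusted p = 0.410).

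The transaminases come as a cytosolic and a mitochondrial form each for alanine (Gpt and Gpt2) and aspartate (Got1 and Got2). Got2, the mitochondrial aspartate form, was at 166, 182 and 173 FPKM in HA livers and at 216, 239 and 196 FPKM in PBS livers, without overlap (log2 fold change -0.32, SE 0.11, limma adjusted p = 0.207). Got1, the cytosolic form, was at 117, 194 and 64.1 FPKM in HA livers and at 83.9, 152 and 74.7 FPKM in PBS livers. Got1 thus spread 3.03-fold among HA livers and 2.04-fold among PBS livers, wider than its difference between groups (log2 fold change 0.20, SE 0.42, limma adjusted p = 0.831). Gpt was at 102, 209 and 134 FPKM in HA livers and at 171, 181 and 157 FPKM in PBS livers. Gpt2 was at 29.9, 73.0 and 49.7 FPKM in HA livers and at 78.6, 58.3 and 70.8 FPKM in PBS livers. Both alanine forms overlapped through HA replicate 2, with log2 fold changes of -0.26 for Gpt and -0.52 for Gpt2 and limma adjusted p of 0.608 and 0.401. Without HA replicate 2 these were -0.53 for Gpt and -0.82 for Gpt2, and without HA replicate 1 they were -0.018 for Gpt and -0.19 for Gpt2.

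Tryptophan breakdown through kynurenine starts with Tdo2, the heme dioxygenase of hepatocytes, and the formamidase Afmid. Tdo2 stood at 784, 2052 and 1168 FPKM in HA livers and at 1345, 1238 and 1476 FPKM in PBS livers. The means were nearly equal at 1335 ± 650.4 FPKM in HA livers and 1353 ± 119 FPKM in PBS livers (SD, n = 3 each), with HA replicate 2 above and HA replicates 1 and 3 below all PBS values (log2 fold change -0.13, SE 0.32, limma adjusted p = 0.861). Afmid was at 12.3, 25.8 and 19.5 FPKM in HA livers and at 27.3, 23.6 and 28.7 FPKM in PBS livers, overlapping through HA replicate 2 (log2 fold change -0.50, limma adjusted p = 0.322).

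Kynurenine is then hydroxylated by Kmo, on the outer mitochondrial membrane, and passes through kynureninase (Kynu) and the ring-opening dioxygenase Haao. Kmo stood at 112, 129.8 and 129 FPKM in HA livers and at 165, 166 and 159.6 FPKM in PBS livers, without overlap. Its log2 fold change was -0.40 (SE 0.10, interval -0.64 to -0.16) with a limma adjusted p of 0.114. Kynu overlapped at 26.9 to 34.9 FPKM in HA livers and 30.2 to 42.0 FPKM in PBS livers, as did Haao at 75.0 to 112 FPKM in HA livers and 94.3 to 105 FPKM in PBS livers. Acmsd, which turns the pathway away from NAD synthesis, was the 1 member with an unadjusted p under 0.05 and a positive log2 fold change. It stood at 8.60, 10.1 and 3.13 FPKM in HA livers and at 3.65, 3.33 and 2.98 FPKM in PBS livers. HA replicates 1 and 2 were above all PBS values and HA replicate 3 lay within them, giving a log2 fold change of 0.82 (interval 0.02 to 1.62) and a limma adjusted p of 0.270. Without HA replicate 3, the library that lowers it, the log2 fold change was 1.26 and the limma adjusted p 0.0283. Without each of the other 5 libraries it was 0.55 to 0.88, with limma adjusted p from 0.408 to 0.448.

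Tyrosine breakdown runs from the transaminase Tat through the dioxygenases Hpd and Hgd to the hydrolase Fah, and Qdpr and Pcbd1 recycle the pterin cofactor tetrahydrobiopterin. All 6 overlapped between groups. Tat was at 607, 335 and 459.9 FPKM in HA livers and at 283, 519 and 331 FPKM in PBS livers (log2 fold change 0.31, interval -0.34 to 0.97). Hpd was at 864, 1871 and 1157 FPKM in HA livers and at 1596, 1502 and 1599 FPKM in PBS livers (log2 fold change -0.34, interval -0.95 to 0.26). Hgd was at 276, 424 and 276 FPKM in HA livers and at 382, 417 and 342 FPKM in PBS livers. For Hpd and Hgd, HA replicate 2 was the highest of all 6 libraries and HA replicates 1 and 3 the lowest, whereas for Tat the order of the HA replicates was the opposite, with replicate 2 lowest. Fah had the narrowest range of the 6 among HA livers, at 297 to 339 FPKM, against 334 to 368 FPKM in PBS livers. Its means were 315 ± 21.5 FPKM in HA livers and 349.9 ± 17.0 FPKM in PBS livers (SD, n = 3 each; limma adjusted p = 0.476). Qdpr, at 158 to 234 FPKM in HA livers and 183 to 211 FPKM in PBS livers, and Pcbd1, at 245 to 298 FPKM in HA livers and 274 to 320.2 FPKM in PBS livers, had log2 fold changes of -0.11 and -0.14. Limma adjusted p over the 6 genes ran from 0.476 to 0.753.

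Histidine is degraded in the order of the lyase Hal, Uroc1, Amdhd1 and Ftcd, which hands a one-carbon unit to folate. These 4 were the 1 amino acid group whose members all had a positive log2 fold change, with a median of 0.25, but all 4 overlapped and none had an unadjusted p under 0.05. Hal was at 107, 237 and 84.3 FPKM in HA livers and at 74.6, 153 and 65.9 FPKM in PBS livers. Amdhd1 was at 79.4, 104 and 58.5 FPKM in HA livers and at 48.0, 88.0 and 48.9 FPKM in PBS livers. Replicate 2 was the highest of its group for all 4 enzymes in HA livers and in PBS livers alike, and each spread more within a group than between the group means. Uroc1 showed it least, at 119, 134 and 114 FPKM in HA livers and at 118, 135 and 109 FPKM in PBS livers. Ftcd was at 115, 159 and 108 FPKM in HA livers and at 118, 131 and 102 FPKM in PBS livers. The log2 fold changes were 0.50 (SE 0.44) for Hal, 0.40 (SE 0.28) for Amdhd1, 0.10 (SE 0.17) for Ftcd and 0.02 (SE 0.12) for Uroc1, with limma adjusted p from 0.491 to 0.942. Without HA replicate 2 the log2 fold changes of Uroc1 and Ftcd turned to -0.05 and -0.07, that of Hal was 0.064, and the median of the 4 was 0.0092.

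**Figure D3:**
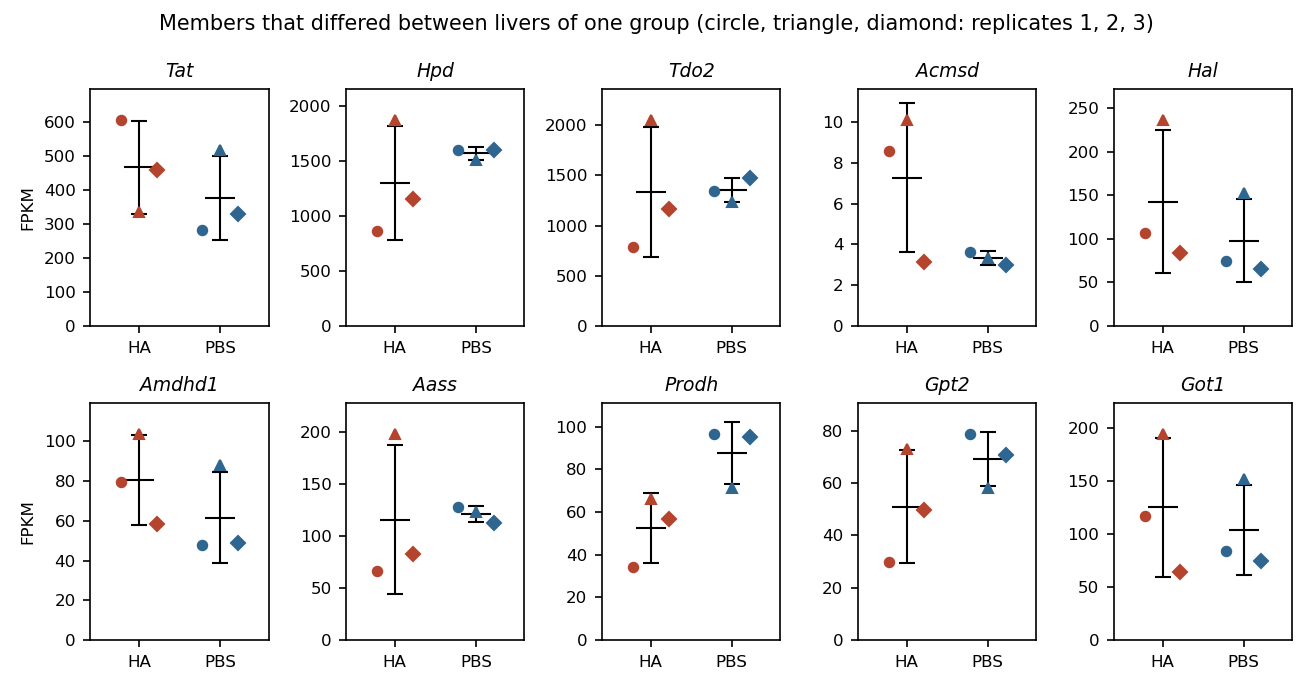
FPKM of members with a wide spread among HA livers, chosen after their values were seen, 1 panel per gene with HA left of PBS; circles, triangles and diamonds are replicates 1, 2 and 3, and bars are the mean ± SD. HA replicate 2 is the highest of the HA livers for Tdo2 (2052 FPKM) and Aass (198 FPKM), and PBS replicate 2 is the highest of the PBS livers for Hal (153 FPKM).

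The HA libraries did not move together. HA replicate 1 lay below the lowest PBS value in 28 of 39 members and above the highest in 4. HA replicate 2 lay below in 19 and above in 12, and HA replicate 3 lay below in 33 and above in 0. HA replicate 2 was the highest HA library in 26 of 39 members, and the ratio of highest to lowest HA value reached 3.23-fold for Acmsd, 3.03-fold for Got1, 2.99-fold for Aass and 2.81-fold for Hal. Among the 22 mitochondrial members, HA replicates 1 and 3 lay below the lowest PBS value in 22 of 22 and HA replicate 2 in 16 of 22. Among the 17 cytosolic members, HA replicate 2 lay above the highest PBS value in 9 and below the lowest in 3. Counts for single libraries were not made over all tested genes, so they have no share beside them here or in the figures. They are thus no trait of the members. Among the 43 other amino acid genes, HA replicates 1 to 3 lay below the lowest PBS value in 27, 24 and 30. They lay above the highest in 12, 13 and 5. Summed over all 39 members, expression was 5508, 8351 and 5885 FPKM in HA livers 1 to 3 and 7121, 7504 and 7239 FPKM in PBS livers 1 to 3.

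**Figure D4:**
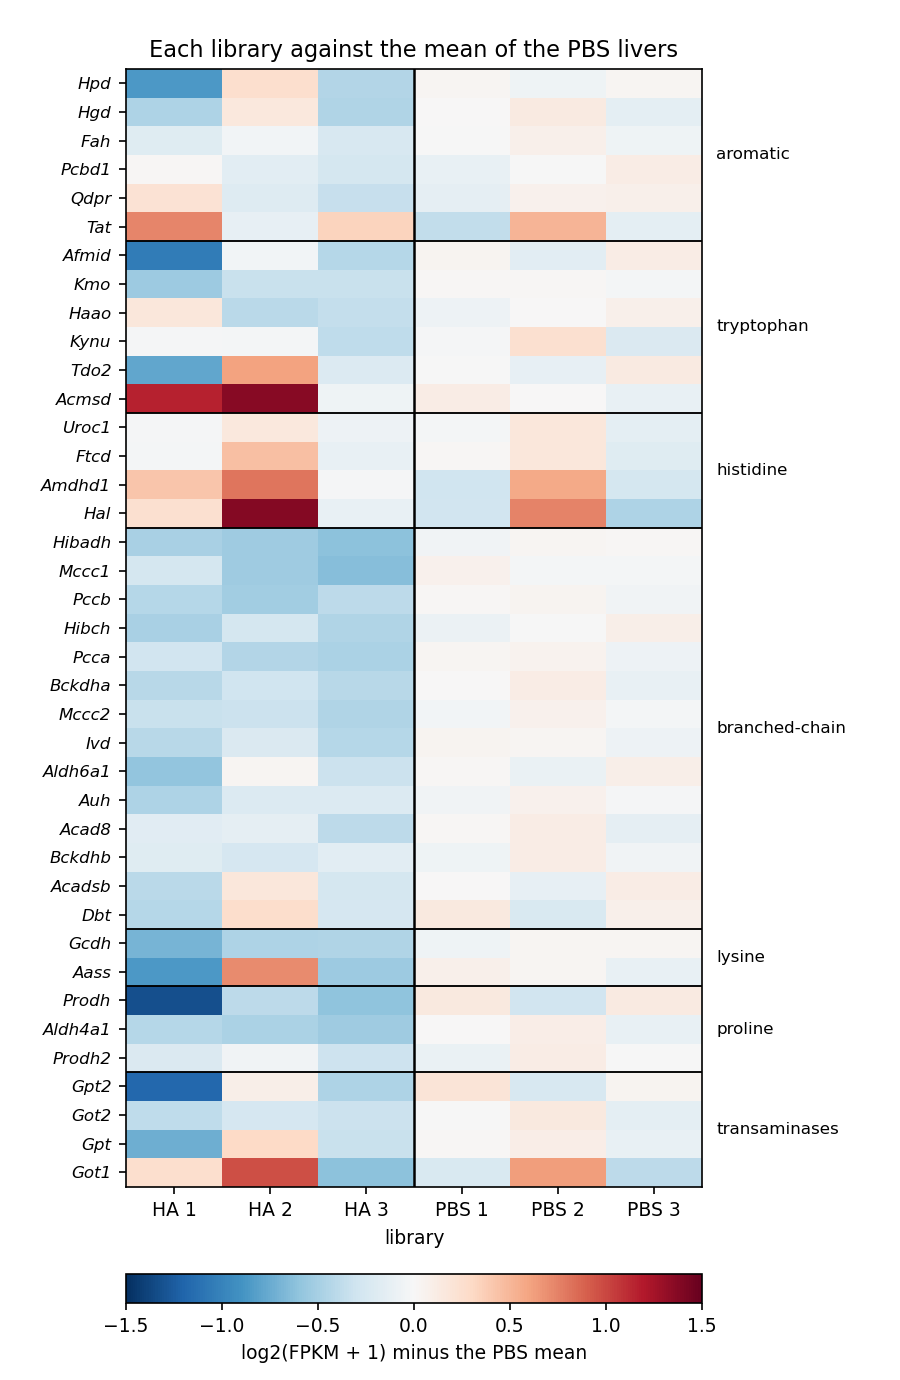
Deviation of each library from the mean of the PBS libraries on the log2(FPKM + 1) scale, for all 39 members in their amino acid groups, with the 3 HA columns left of the 3 PBS columns. HA replicates 1 and 3 are low in most rows, and HA replicate 2 is above the highest PBS value in 12 of 39 rows.

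Other transcripts differed between the groups beside these enzymes, and their part in the results was not tested. Of 5 red blood cell markers 3 rose in HA livers by limma (Hba-a1, Hba-a2 and Hbb-bt). The 5 summed to 698 to 1319 FPKM in HA livers and 227 to 335 FPKM in PBS livers. Globin copies share sequence, so their split is uncertain. Alas2 went the other way, at 34.2 to 36.6 FPKM in HA livers and 36.8 to 45.8 FPKM in PBS livers (log2 fold change -0.21, limma adjusted p = 0.364). All 6 macrophage markers had positive log2 fold changes with 0 past the threshold, at a summed level of 48.4 to 86.2 FPKM in HA livers and 37.4 to 45.7 FPKM in PBS livers. Of 6 markers of hepatocytes near the central vein 5 were negative and 1 fell by limma (Oat), at summed levels of 3587 to 6510 FPKM in HA livers and 9615 to 10216 FPKM in PBS livers. Most of these sums was Cyp2e1, also listed above as a hepatocyte marker, at 2930 to 5632 FPKM in HA livers and 8131 to 8151 FPKM in PBS livers. Of 6 markers of hepatocytes near the portal vein, a list that includes the member Hal, 5 were positive with 0 past the threshold, at summed levels of 2503 to 3999 FPKM in HA livers and 2329 to 3179 FPKM in PBS livers. Oat of the central list and Sds and Gls2 of the portal list also belong to the other amino acid genes described below.

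Promoter sequence is shown for the 4 members with the smallest p-values and 1 promoter window each (Hibadh, Gcdh, Pccb and Aldh4a1), and for Hal and Ftcd, the enzymes at either end of the histidine pathway, which were highest in replicate 2 of both groups. Each run is the 150 bases before the annotated transcription start, 5′ to 3′ on the gene's strand, from RefSeq promoter windows on build GRCm38.p6, whereas the expression values were made on GRCm39. Capitals mark the TATA box letters TATAAA, the CAAT box letters CCAAT and the GC box letters GGGCGG. Both strands were searched, so the reverse complements are in capitals too, which read TTTATA for the TATA box, ATTGG for the CAAT box and CCGCCC for the GC box. No marked match overlaps another.
Hibadh: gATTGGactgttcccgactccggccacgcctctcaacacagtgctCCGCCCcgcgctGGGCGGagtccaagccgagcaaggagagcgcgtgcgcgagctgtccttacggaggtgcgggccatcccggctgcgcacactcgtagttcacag
Gcdh: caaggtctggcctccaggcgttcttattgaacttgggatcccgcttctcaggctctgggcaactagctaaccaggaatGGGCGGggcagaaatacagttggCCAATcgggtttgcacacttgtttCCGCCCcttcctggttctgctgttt
Pccb: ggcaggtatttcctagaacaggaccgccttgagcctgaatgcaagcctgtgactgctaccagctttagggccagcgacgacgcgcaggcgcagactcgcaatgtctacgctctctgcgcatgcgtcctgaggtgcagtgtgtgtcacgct
Aldh4a1: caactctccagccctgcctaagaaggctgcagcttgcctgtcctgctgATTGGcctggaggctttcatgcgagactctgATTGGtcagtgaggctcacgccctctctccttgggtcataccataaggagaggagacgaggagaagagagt
Hal: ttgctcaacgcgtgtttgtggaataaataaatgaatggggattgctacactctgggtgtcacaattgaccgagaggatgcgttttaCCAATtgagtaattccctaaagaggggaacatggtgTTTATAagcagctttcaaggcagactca
Ftcd: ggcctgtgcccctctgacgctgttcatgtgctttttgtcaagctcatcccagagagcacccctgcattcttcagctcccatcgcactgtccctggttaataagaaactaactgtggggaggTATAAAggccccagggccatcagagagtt

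The printed windows lie at chr6:52640301-52640450 (minus strand) for Hibadh, chr8:84893922-84894071 (minus) for Gcdh, chr9:101034885-101035034 (minus) for Pccb, chr4:139622744-139622893 (plus) for Aldh4a1, chr10:93488618-93488767 (plus) for Hal and chr10:76575498-76575647 (plus) for Ftcd. TATAAA letters start 28 bases before the start site in Hal, on the opposite strand, and 29 bases before it in Ftcd. The windows of Uroc1 and Amdhd1, which were also highest in replicate 2 of both groups, hold no TATAAA letters. The Pccb run holds none of the 3 motifs. Of the 39 members 36 matched a window of 300 bases in the RefSeq table, and 3 of these had 2 windows, giving 39 windows; Kynu, Gpt and Dbt had none. TATAAA was in 6 of the 39 windows (15.4%) against 13.6% of all 32851 windows, CCAAT in 22 (56.4%) against 37.4%, and GGGCGG in 17 (43.6%) against 35.7%. Among windows of the tested genes the shares were 7.78% for TATAAA, 37.7% for CCAAT and 60.9% for GGGCGG. The TATA box letters were in 0 of 16 branched-chain windows, and in 1 of 24 mitochondrial windows against 5 of 15 cytosolic ones. A match of letters is a description and not a binding site.

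Other genes of amino acid metabolism were taken from a list of 46, of which 43 were in the table and 41 were tested. Of these 2 fell by limma, Oat and Hsd17b10, and 0 rose, against 0.512% lower and 0.289% higher of all tested genes. At an unadjusted p under 0.05 there were 14 lower and 3 higher, against 13.1% and 4.61% of all tested genes. Wholly lower were 18 of 41 and wholly higher 3, against 19.2% and 6.47% of all tested genes. The share wholly lower was thus 43.9%, beside 41.0% of the members. Oat, the ornithine aminotransferase that joins ornithine to proline and glutamate, was at 338, 506 and 554 FPKM in HA livers and at 1392, 1554 and 1011 FPKM in PBS livers. The highest HA value was far below the lowest PBS value, and the log2 fold change was -1.51 (limma adjusted p = 0.0425, SE 0.23). Hsd17b10, a mitochondrial dehydrogenase of the isoleucine branch, was at 141, 189 and 179.8 FPKM in HA livers and at 299, 308 and 286 FPKM in PBS livers. All 3 HA values were lower, with a log2 fold change of -0.82 (limma adjusted p = 0.0462, SE 0.13). With libraries rescaled to the FPKM outside Alb the adjusted p was 0.0619 for Oat and 0.0694 for Hsd17b10. Leaving out any 1 library ended the call of Oat, with adjusted p from 0.0501 without HA replicate 2 to 0.163 without PBS replicate 1. The call of Hsd17b10 held without HA replicate 2 (adjusted p = 0.0408) and ended without each of the other 5 libraries, with adjusted p from 0.0594 without HA replicate 1 to 0.176 without PBS replicate 1.

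None of the remaining genes on that list passed the threshold. In the branched-chain steps, Acat1, the thiolase that ends the isoleucine branch, was at 119.8, 138 and 148 FPKM in HA livers and at 189, 197 and 190.1 FPKM in PBS livers (log2 fold change -0.51, limma adjusted p = 0.0863). It lay wholly lower in HA livers. Gstz1, the isomerase between Hgd and Fah in tyrosine breakdown, was at 168, 166 and 169 FPKM in HA livers and at 224, 219 and 225 FPKM in PBS livers (log2 fold change -0.40, limma adjusted p = 0.0864). Aldh7a1, between Aass and Gcdh in lysine breakdown, was at 118, 116 and 109 FPKM in HA livers and at 149, 178 and 144 FPKM in PBS livers (log2 fold change -0.45, limma adjusted p = 0.117). The spread within each group was small for Gstz1 and its groups lay apart, unlike those of the tyrosine members on either side of it. Agxt2, a mitochondrial aminotransferase, was at 47.3, 39.6 and 44.5 FPKM in HA livers and at 66.8, 68.0 and 60.3 FPKM in PBS livers (log2 fold change -0.56, limma adjusted p = 0.0679).

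In the other direction, Kyat1, a kynurenine aminotransferase, was at 49.0, 41.8 and 29.6 FPKM in HA livers and at 20.8, 22.9 and 19.0 FPKM in PBS livers. All HA values were higher, with a log2 fold change of 0.89 (limma adjusted p = 0.0783, SE 0.18), and the adjusted p was 0.0495 without HA replicate 3 and 0.112 to 0.234 without each of the other 5 libraries. Bcat2, the mitochondrial transaminase that opens branched-chain breakdown in many tissues, was chosen after its values were seen. It was at 7.79, 9.59 and 8.01 FPKM in HA livers and at 6.58, 6.95 and 5.89 FPKM in PBS livers, wholly higher in HA livers and so opposite in sign to the branched-chain members (log2 fold change 0.34, SE 0.11, limma adjusted p = 0.191). Sds, the serine dehydratase of fasting liver, was at 152, 300.4 and 110.3 FPKM in HA livers and at 83.6, 111 and 75.1 FPKM in PBS livers, with HA replicate 2 highest and an overlap between HA replicate 3 and PBS replicate 2 (log2 fold change 0.94, limma adjusted p = 0.223).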

How the data were processed

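Liver RNA of 3 HA and 3 PBS samples was grouped by the treatment label. The authors deposited 1 table of FPKM values for 16638 genes. Its header gives sample names and no unit, and the deposit describes the values as FPKM. Trimmomatic and HISAT2 were used with build GRCm39, per the submitters' processing notes. The sources used here give no counter, annotation or strandedness, so overlapping or antisense genes could share fragments. Per the labels' protocols 2 library kits are named, without saying which was used. Whole fragments were recovered from the FPKM values (96328 of 96328 values above 0 whole within 0.0001). These depths cover counting error only, and fragments are not independent molecules. The model was limma (version 3.58.1, R 4.3.3) with treatment alone, on log2(FPKM + 1), using a variance trend without robust fitting, and was tested on simulated data. Fold changes on this log2 scale of the deposited values understate those of low genes. With 3 samples a group, 0.1 is the smallest two-sided p of an exact permutation test, so none was used. No 2 libraries were copies (chi-square per degree of freedom at least 31.1). All 39 members were named; of the other amino acid genes those past the threshold and up to 3 per pathway with the smallest p could be named, and of the regulators and cell type markers all; some genes that this rule would name are not reported here. The members and gene lists were chosen with earlier results of these data known.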

Additional observations from a re-analysis of the deposited data

How the results depend on the processing

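Over the 39 members and 15 alternatives (585 pairs), 32 members kept the sign of their log2 fold change throughout and 8 pairs reversed, all by leaving out a library. Ranges over the libraries left out, 1 at a time, were -0.50 to 0.20 for Tdo2, -0.34 to 0.0053 for Dbt, -0.70 to 0.083 for Aass, -0.050 to 0.11 for Uroc1, -0.067 to 0.21 for Ftcd, -0.18 to 0.61 for Got1 and -0.27 to 0.012 for Qdpr. The count of members past the threshold was 1 lower (Hibadh) without a variance trend and otherwise 0 lower; leaving out a library gave 0 to 1 higher (Acmsd without HA replicate 3). With a library left out, the median ran from -0.38 to -0.21 over the 39 members, from -0.19 to -0.093 (aromatic), -0.32 to -0.10 (tryptophan), 0.0092 to 0.44 (histidine), -0.40 to -0.33 (branched-chain), -0.64 to -0.19 (lysine), -0.53 to -0.43 (proline) and -0.44 to -0.10 (transaminases). Scaled outside Alb, the medians were -0.27 (branched-chain) and -0.39 (proline); with voom and median-ratio depths they were -0.28 and -0.39. Over all genes, 31 rose and 55 fell. Those falling were 32 with median centring, 21 outside Alb and 11 with voom and median-ratio depths. Without the filter 7 rose and 10 fell. Leaving out a library gave 1 to 47 rising and 4 to 70 falling. Other amino acid genes falling were 2, against 1 with median centring, 0 outside Alb, 0 without the filter, 1 with voom on library totals and 0 with voom on median-ratio depths; leaving out a library gave 0 to 1 falling and 0 to 1 rising (Kyat1). The cause of these shifts was not tested. Same-numbered deviations correlated at -0.14, -0.12 and 0.18, and differently numbered ones at -0.13 to 0.22. The numbers thus showed no clear pairing, but so few libraries cannot exclude it. With the numbers as a replicate block, 0 members were called (smallest adjusted p 0.153), 7 genes rose and 9 fell, and 0 other amino acid genes fell. At an unadjusted limma p under 0.05 the block fit gave 17 members, against 15 in the main fit. The planned count test and the voom fit with TMM depths were not run, because the deposited unit is not counts; the voom fits were chosen after seeing the data. With 3 samples a group, members with intervals across 0 may differ in either direction.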

Other observations

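Of 11 regulators tied to these pathways in liver, 0 passed the threshold by limma and 2 (18.2%) had an unadjusted p under 0.05, near the 17.7% of all tested genes. Ppara, the nuclear receptor for fatty acids that drives genes of mitochondrial oxidation, was at 19.8, 24.2 and 33.4 FPKM in HA livers and at 46.9, 34.9 and 41.3 FPKM in PBS livers (log2 fold change -0.67, SE 0.20, limma adjusted p = 0.151). Cebpa, a transcription factor of hepatocyte identity, was at 110.2, 139.5 and 130.4 FPKM in HA livers and at 162, 157 and 160.1 FPKM in PBS livers (log2 fold change -0.34, SE 0.11, limma adjusted p = 0.195). Both lay wholly lower in HA livers, as did 19.2% of all tested genes. Klf15, a factor that drives amino acid breakdown in fasting, overlapped at 20.7 to 23.3 FPKM in HA livers and 16.8 to 27.5 FPKM in PBS livers. Hnf4a, Nr3c1, Gcgr, Cebpb and Per1 also overlapped.

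Fkbp5 and Tsc22d3, both induced by glucocorticoids, varied more within groups than between them. Fkbp5 was at 11.1, 40.4 and 32.1 FPKM in HA livers and at 35.0, 7.37 and 36.0 FPKM in PBS livers. Tsc22d3 was lowest of the HA livers in HA replicate 2, at 13.5 FPKM, and highest of the PBS livers in PBS replicate 2, at 46.2 FPKM against 17.5 and 16.5 FPKM in the other PBS livers. Among the 39 members, Tat, Bckdhb and Pccb were also lowest in HA replicate 2 and highest in PBS replicate 2 within their groups. Bckdhb and Pccb spanned only 1.06-fold and 1.09-fold among HA livers, against 2.88-fold for Tsc22d3. The share of all tested genes with this order was not counted, so these members are no evidence of a shared pattern. A link between these genes was not tested. The ratio of mitochondrial Got2 to cytosolic Got1 was 1.42, 0.935 and 2.71 in HA livers and 2.57, 1.57 and 2.62 in PBS livers.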
